A study of Mus musculus with 30 samples.

Results

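Yap1, Wwtr1 (the gene of Taz), Tead1, Tead2, Tead3, Tead4, Vgll3 and Vgll4 are the transcriptional end of the Hippo pathway that was examined in primary mouse tail-tendon fibroblasts. The 8 genes were taken by name from the deposited RNA tables, as 8 of 35973 genes, and all 8 passed the filter on low values. Chromatin sites were taken where the authors' annotation named one of the 8 genes, which gave 31 of 16367 sites over 5 deposited lists. The series asked how mechanical cues and Yap/Taz bear on chromatin and transcription.

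All groups were wildtype cells kept in medium with 0.1% serum during treatment, after growth in 10% serum, per the labels. RNA was measured in 3 groups of 3 libraries, treated with the solvent DMSO, with 10 µM blebbistatin, which blocks the motor of non-muscle myosin II, or with 30 µM Y27632 (a kinase inhibitor). ATAC-seq, which maps open chromatin, was done on 3 libraries for each of the same 3 treatments. In a further experiment, 12 genomic DNA libraries were made in 4 groups of 3, with neither drug, blebbistatin at 10 µM, doxycycline at 10 ng/mL, or both. The labels do not say what doxycycline induces in these cells, which assay those 12 libraries had, or how long any treatment lasted. They also do not say whether animals were pooled or whether libraries came from separate cultures, so the p-values measure the spread between these libraries, which may be technical.

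Yap and Taz are co-activators that bind no DNA themselves. When the kinases of the Hippo pathway are inactive, as in spread and contractile cells, they enter the nucleus and bind the Tead proteins, which carry the DNA-binding domain and recognise a short motif with the core GGAAT. Vgll proteins bind the same face of the Tead proteins: Vgll4 competes with Yap and Taz there, and Vgll3 is another Tead partner that is found in mesenchymal cells. In fibroblasts the pathway is known for its response to tension and matrix stiffness.

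The RNA libraries held 23375386 to 37061737 reads in genes, and 25170 to 48015 of them fell on the 8 genes. All 12 tendon fibroblast markers averaged at least 1 CPM, among them Col1a1, Col3a1, Scx and Tnmd. CPM are reads scaled to a common library size, with all 9 libraries together. Scx was low, at 2.40 CPM with DMSO, 2.44 with blebbistatin and 2.94 with Y27632. An average of 1 CPM was also reached by 3 of 4 leukocyte, 2 of 3 Schwann and 2 of 2 pericyte markers. It was reached by 1 of 3 endothelial, 1 of 3 keratinocyte and 0 of 3 skeletal muscle markers. The 4 leukocyte markers summed to 34.6 to 40.6 CPM with DMSO, 50.6 to 59.6 with blebbistatin and 49.5 to 58.9 with Y27632. Of these, Cd3e was at 0 in all libraries. Summed endothelial markers ran from 3.08 to 3.57 CPM with DMSO, 3.95 to 4.40 with blebbistatin and 3.92 to 4.43 with Y27632, and Schwann markers from 4.38 to 5.23, 5.76 to 6.21 and 5.15 to 6.23. The summed keratinocyte markers reached at most 2.82 CPM and the skeletal muscle markers 0.386 (Myod1 and Ckm at 0). The pericyte markers Rgs5 and Cspg4 summed to 74.9 to 83.0 with DMSO, 85.1 to 96.7 with blebbistatin and 82.4 to 103 with Y27632, nearly all of it Cspg4. The part of these other cell types in the results was not tested.

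Blebbistatin changed the RNA of all 8 genes, 4 in each direction. The falls were the larger changes: Vgll3 fell to 0.36 of its DMSO level, and Tead3, Tead1 and Tead4 to 0.45, 0.47 and 0.53. Vgll4 rose 1.59-fold, Tead2 1.35-fold, Wwtr1 1.26-fold and Yap1 1.10-fold. Calls were common in this comparison, with 53.0% of the 14882 genes tested called by limma (26.1% higher, 26.9% lower, at the threshold of 0.05 on the adjusted p), so a call alone sets none of the 8 apart from other genes. The 4 that fell lay among the lowest 518 of the 14882 log2 fold changes. In these bulk samples, fewer cells of a type and less RNA per cell cannot be told apart.

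The co-activators rose, Yap1 least of the 8 genes. Yap1 had 4358, 4642 and 4388 normalised counts in the 3 DMSO libraries and 4829, 4957 and 4877 in the 3 blebbistatin libraries. Every blebbistatin library was above every DMSO library, but the step was small. The log2 fold change, on the scale of the normalised count plus 1, was 0.13 with a standard error of 0.034 (limma, adjusted p = 0.00615). Wwtr1, which encodes Taz, had 4728, 4820 and 4728 normalised counts with DMSO and 6157, 5935 and 5853 with blebbistatin. Its groups did not overlap, and its log2 fold change was 0.33 with a standard error of 0.032 (limma, adjusted p = 2.52e-06).

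The Tead genes, which encode the DNA-binding partners, split. Tead1 had 9084, 8983 and 7952 normalised counts with DMSO and 4158, 4003 and 4065 with blebbistatin. The third DMSO library was the lowest of its group and still lay far above the treated ones. Tead1's log2 fold change was -1.09 with a standard error of 0.046 (limma, adjusted p = 1.65e-09). Tead3 had 1757, 1796 and 1785 normalised counts with DMSO and 780.1, 835 and 769.9 with blebbistatin, and its log2 fold change was -1.16 with a standard error of 0.045 (limma, adjusted p = 6.97e-10). Both thus fell by more than the spread between their libraries.

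Tead4 had the fewest reads, between 85 and 161 in each of these 6 libraries, and the widest standard error of the 8. It had 159.9, 161 and 162 normalised counts with DMSO and 88.3, 82.2 and 83.6 with blebbistatin. The groups were well separated even so, with a log2 fold change of -0.92 and a standard error of 0.107 (limma, adjusted p = 1.38e-05). Tead2 was the only Tead gene that rose with blebbistatin, from 2176, 2156 and 2087 normalised counts to 2804, 2863 and 2986. Its log2 fold change was 0.43 with a standard error of 0.037 (limma, adjusted p = 1.03e-06). Within libraries, 4.05 ± 0.21 reads of Tead1 were counted per read of Tead2 with DMSO and 1.41 ± 0.06 with blebbistatin (SD, n = 3). The 2 genes differ in length, so only the change of this ratio, and not its size, can be read.

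The Vgll genes, whose proteins share the Tead surface with Yap and Taz, moved in opposite directions. Vgll3 had 16120, 16875 and 16221 normalised counts with DMSO and 5880.3, 5983 and 5974 with blebbistatin. These 2 groups were the farthest apart of any of the 8 genes. The log2 fold change was -1.46 with a standard error of 0.030 (limma, adjusted p = 4.41e-12), rank 179 from the lowest of 14882. Vgll4, the competitor of Yap and Taz, had 935, 924 and 928 normalised counts with DMSO and 1449, 1450.3 and 1545 with blebbistatin, a log2 fold change of 0.67 with a standard error of 0.043 (limma, adjusted p = 6.56e-08). Reads of Vgll3 per read of Vgll4 in the same library went from 17.7 ± 0.53 with DMSO to 4.02 ± 0.13 with blebbistatin (SD, n = 3). Vgll1 had 0 reads in all 9 libraries and Vgll2 had 2 reads in 1 Y27632 library and 0 elsewhere, so neither could be tested.

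**Figure D1:**
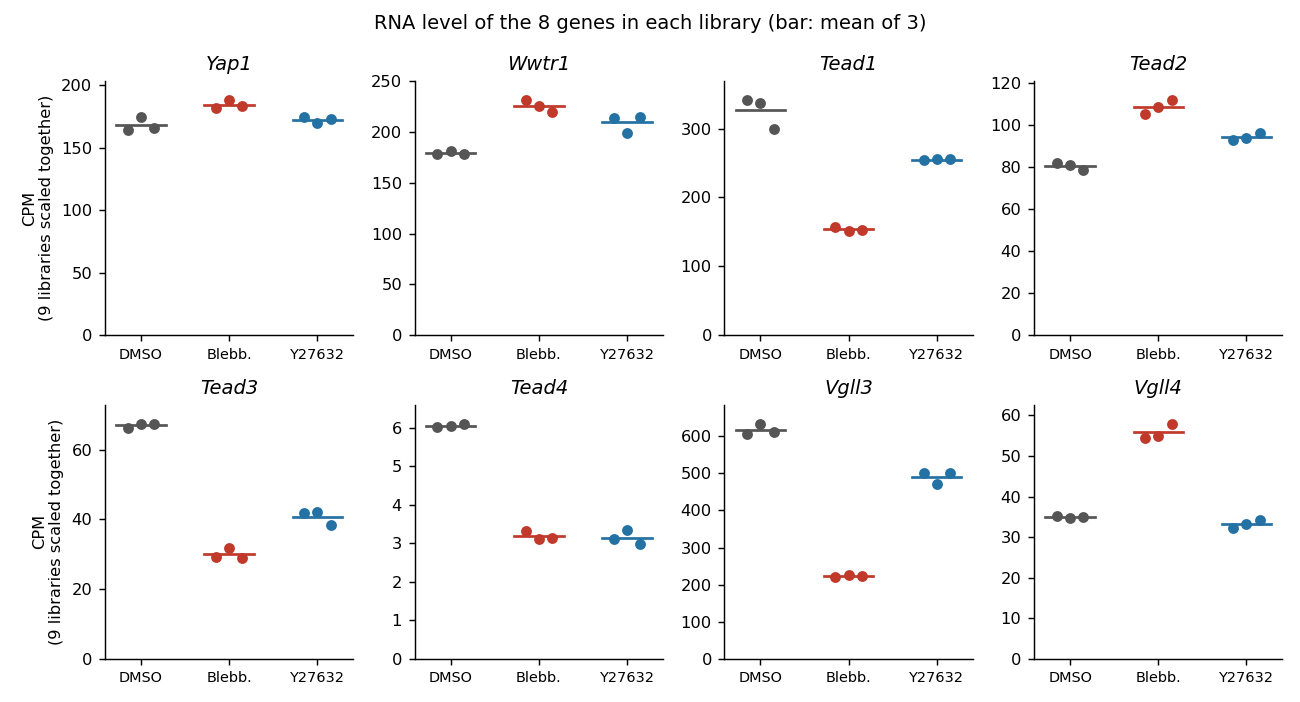
CPM of each gene in the 9 RNA libraries, with all libraries scaled together (y axis, from 0, a separate scale for each gene), by treatment (x axis); points are libraries and bars are means of 3. Blebbistatin libraries lie below DMSO for Tead1, Tead3, Tead4 and Vgll3 and above it for the other 4 genes, while the Yap1 values of DMSO and Y27632 overlap.

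Y27632 changed 6 of the 8 genes: Tead4, Tead3, Tead1 and Vgll3 fell, and Tead2 and Wwtr1 rose. The falls reached from 0.52 of the DMSO level for Tead4 to 0.79 for Vgll3, and both rises were 1.17-fold. Yap1 and Vgll4 did not pass the test. Of the 14833 genes tested, 35.9% were called, 18.1% higher and 17.8% lower. The comparison uses the same 3 DMSO libraries as the blebbistatin comparison, so likeness between the treatments is not independent evidence, and their values are only set side by side.

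Tead4 had 166, 167 and 168 normalised counts with DMSO and 85.7, 92.1 and 82.8 with Y27632, on the scale of the second table, which was normalised separately. This was the widest fall of the 8 genes under Y27632, to 0.52 of the DMSO level, with a log2 fold change of -0.94 and a standard error of 0.107 (limma, adjusted p = 2.09e-05). Tead3 had 1827, 1864 and 1855 normalised counts with DMSO and 1152, 1164 and 1063 with Y27632, a log2 fold change of -0.72 with a standard error of 0.043 (limma, adjusted p = 6.65e-08). No Y27632 library of either gene reached a DMSO library.

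Tead1 had 9444, 9325 and 8263 normalised counts with DMSO and 6977, 7051 and 7064 with Y27632. The fall, to 0.78 of the DMSO level, was shallower than under blebbistatin, with a log2 fold change of -0.36 and a standard error of 0.044 (limma, adjusted p = 4.17e-05). Vgll3 had 16758, 17518 and 16856 normalised counts with DMSO and 13777, 12995 and 13877 with Y27632. It fell to 0.79 of its DMSO level, with a log2 fold change of -0.33 and a standard error of 0.033 (limma, adjusted p = 7.39e-06).

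Among the genes that rose, Tead2 went from 2263, 2238 and 2169 normalised counts to 2553, 2587 and 2669.7, a log2 fold change of 0.23 with a standard error of 0.035 (limma, adjusted p = 2.65e-04). Wwtr1 went from 4915, 5003 and 4914 to 5878, 5489 and 5946 normalised counts, a log2 fold change of 0.22 with a standard error of 0.035 (limma, adjusted p = 2.93e-04). In neither gene did the groups overlap. Reads of Wwtr1 per read of Yap1 were 1.07 ± 0.025 with DMSO, 1.22 ± 0.044 with blebbistatin and 1.22 ± 0.036 with Y27632 (SD, n = 3).

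Yap1 had 4530.4, 4819 and 4560.3 normalised counts with DMSO and 4784, 4669 and 4782 with Y27632, and the 2 groups overlapped. Its log2 fold change was 0.034, with a 95% confidence interval from -0.038 to 0.11 (limma, adjusted p = 0.462). Vgll4 had 972, 959.7 and 965 normalised counts with DMSO and 888, 917 and 944 with Y27632. The Y27632 libraries all lay below the DMSO libraries, but the log2 fold change of -0.076, with an interval from -0.17 to 0.020, did not pass the test (limma, adjusted p = 0.207). Groups that do not overlap were common: on the scale of all libraries together they made up 48.0% of the genes tested in this comparison, 60.1% for blebbistatin against DMSO and 60.7% for blebbistatin against Y27632.

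**Figure D2:**
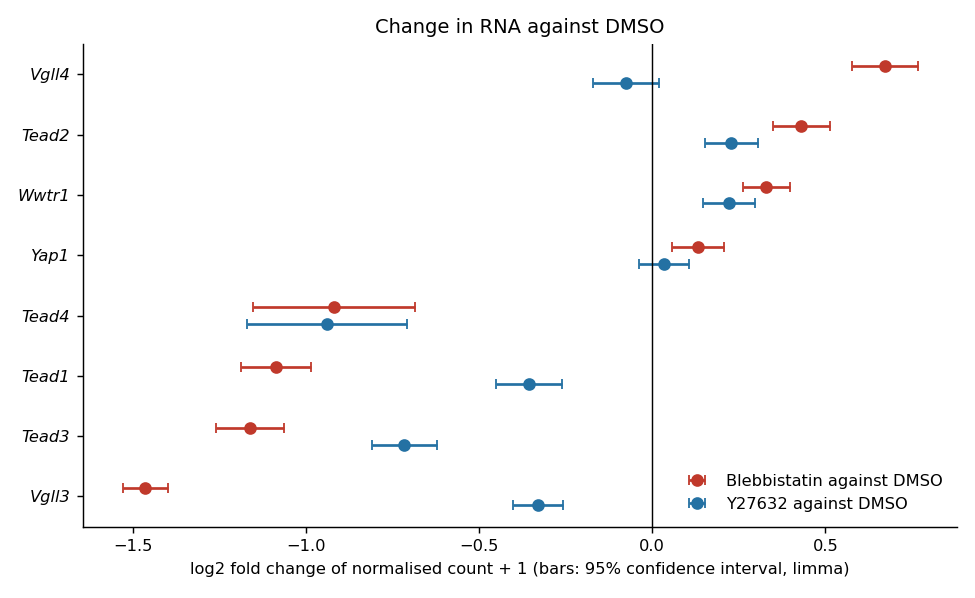
Log2 fold change of the normalised count plus 1 against DMSO (x axis) for each of the 8 genes (y axis), blebbistatin in red and Y27632 in blue; bars are 95% confidence intervals from limma. The Tead4 points lie side by side near -0.92 and -0.94, the Vgll3 and Tead1 points are apart, and Vgll4 lies to the right of 0 only for blebbistatin.

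The treatments were compared with each other on whole reads recovered from the tables, with all 9 libraries in 1 fit. They were given at 1 dose each, 10 µM and 30 µM, so the comparison is between these 2 doses. Of the 8 genes, 7 differed, 4 higher and 3 lower with blebbistatin, where 53.1% of the 14926 genes tested did (25.8% higher, 27.3% lower). Vgll3, Tead1 and Tead3 were lower with blebbistatin than with Y27632, and Vgll4 was the gene most clearly higher.

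Vgll3 averaged 618 ± 14.9 CPM with DMSO, 224 ± 2.96 with blebbistatin and 491 ± 17.2 with Y27632 (SD, n = 3). The difference between the treatments was -1.13 on the log2 scale (edgeR, adjusted p = 6.99e-12). Tead1 averaged 326 ± 23.0, 154 ± 2.41 and 255 ± 1.03 CPM in the same order, a log2 difference of -0.73 (edgeR, adjusted p = 5.73e-09). For both genes the order of the 3 groups was DMSO, Y27632, blebbistatin, and no neighbours in that order overlapped. Tead3 had the same order, at 67.0 ± 0.77, 30.0 ± 1.51 and 40.8 ± 2.11 CPM for DMSO, blebbistatin and Y27632, with a log2 difference of -0.45 between the treatments (edgeR, adjusted p = 3.85e-06).

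Vgll4 averaged 35.0 ± 0.22 CPM with DMSO, 55.9 ± 1.89 with blebbistatin and 33.2 ± 0.92 with Y27632 (SD, n = 3). Its log2 difference between the treatments was 0.75 (edgeR, adjusted p = 3.87e-09), the direct test of the different response of this gene. Tead2 averaged 80.6 ± 1.62, 109 ± 3.32 and 94.4 ± 1.86 CPM for DMSO, blebbistatin and Y27632, with a log2 difference of 0.20 (edgeR, adjusted p = 1.68e-04). Its order was DMSO, Y27632, blebbistatin, rising in this case.

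Tead4 was the 1 gene of the 8 for which the treatments did not differ by the test. It averaged 6.06 ± 0.05 CPM with DMSO, 3.19 ± 0.11 with blebbistatin and 3.15 ± 0.18 with Y27632. The treatments overlapped, and the log2 difference was 0.016 with an approximate 95% interval from -0.22 to 0.25 (edgeR, adjusted p = 0.934). The treated libraries held 79 to 114 reads of the gene each, and the interval leaves room for a difference of either sign. Leaving out the first blebbistatin library turned the difference to -0.012, and leaving out the third Y27632 library turned it to -0.016.

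For the co-activators the differences between the treatments were small, and each call depended on single libraries. Wwtr1 averaged 179 ± 1.80, 226 ± 5.93 and 209 ± 8.79 CPM for DMSO, blebbistatin and Y27632, with a log2 difference of 0.11 between the treatments (edgeR, adjusted p = 0.0164). The call was lost without the first blebbistatin library (0.088, adjusted p = 0.0755 by edgeR) and without the second Y27632 library (0.073, adjusted p = 0.0838). Yap1 averaged 168 ± 5.71, 184 ± 3.42 and 172 ± 2.40 CPM, with a log2 difference of 0.099 (edgeR, adjusted p = 0.0173). That call was lost without the second blebbistatin library (0.083, adjusted p = 0.0658) and without the second Y27632 library (0.088, adjusted p = 0.0616). The order DMSO, Y27632, blebbistatin held for the means of both genes.

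The 8 genes were also set against each other over the 9 libraries, as the root mean square difference between their log2 values, each centred on its own mean. The closest pair was Wwtr1 and Tead2, at 0.067 log2 units, followed by Yap1 and Wwtr1 at 0.097. Among the genes that fell, Tead1 and Tead3 were closest, at 0.170. Vgll3 and Vgll4 were the farthest pair, at 0.944. These distances are descriptions, and all of them rest on the same 9 libraries and 3 treatments.

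Other genes with the most similar pattern were found by the same measure among 11439 candidates for the 4 genes whose group means ranged most widely. Nearest to Vgll3 were Rras2 at 0.050, Il6st at 0.060 and Timp3 at 0.067 log2 units. Nearest to Tead3 were Tpm1 at 0.045, which encodes an actin-binding tropomyosin, Hspa5 at 0.054, an endoplasmic reticulum chaperone, and Lss at 0.064, an enzyme of sterol synthesis. Nearest to Tead1 were Rbms3 at 0.053, Acss2 at 0.054 and Hs6st2 at 0.061. Nearest to Tead4 were Lrrc75a at 0.041, Tspyl4 at 0.055 and Arhgap24 at 0.058. With so many candidates some genes lie close to any pattern, and nothing is read from these names.

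Around the 8 genes, the kinases and scaffolds of the Hippo pathway moved both ways. Most of them act to restrain Yap and Taz, while Ajuba, Limd1 and Wtip are LIM proteins that bind and inhibit Lats kinases. Of 24 such genes tested, 7 rose and 12 fell with blebbistatin, with a median log2 fold change of -0.079, where the median of all genes tested was 0.0021. Over all genes 26.1% rose and 26.9% fell, so the number that rose is near that share. With Y27632, 6 rose and 7 fell, with a median of 0.019, against 0.0040 for all genes, of which 18.1% rose and 17.8% fell. The core kinase genes Stk3 and Stk4, which encode Mst2 and Mst1, did not pass the test with blebbistatin, at -0.0090 and -0.074, and were named after their values were seen. Stk4 rose with Y27632, by 0.21 on the log2 scale (limma, adjusted p = 0.0055), and was lower with blebbistatin than with Y27632, at a log2 difference of -0.28 (edgeR, adjusted p = 2.1e-04), while Stk3 passed neither test. Amotl2, which encodes an angiomotin that holds Yap at junctions, had 21493 ± 123 normalised counts with DMSO and 4598 ± 255 with blebbistatin (SD, n = 3). This is a log2 fold change of -2.23 with a standard error of 0.038 (limma, adjusted p = 1.59e-12). Ajuba, one of those LIM proteins, fell by 1.46 on the log2 scale with blebbistatin and by 0.64 with Y27632.

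The genes of that list that rose most with blebbistatin were Map4k4, a kinase acting upstream of Lats, at a log2 fold change of 0.69, and Dchs1, a large cadherin, at 0.47. With Y27632, Frmd6 rose by 0.30 and Map4k4 by 0.28, and Amot fell by 0.61. Frmd6, a membrane-linked activator of the pathway, moved in opposite directions under the treatments: it fell by 0.66 with blebbistatin, and the log2 difference between the treatments was -0.96 (edgeR, adjusted p = 1.30e-10). In the direct comparison, 15 of the 24 genes were lower with blebbistatin than with Y27632 and 5 higher, where 27.3% of all genes were lower and 25.8% higher.

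Proteins that partner with, anchor or degrade Yap and Taz made up another list of 22 genes, of which 20 could be tested. With blebbistatin 1 rose and 8 fell, with a median of -0.026. These 9 of 20 are no more than the 53.0% called over all genes, but most of them fell. Over all genes 26.1% rose and 26.9% fell. Smad2, a signal carrier of the Tgf-beta pathway, fell by 0.60 on the log2 scale, and Tbx5, a transcription factor that can bind Yap, fell by 0.71, while Csnk1e, a casein kinase, rose by 0.17. With Y27632, where 35.9% of all genes were called, 6 rose and 4 fell, with a median of 0.052: Smad3 rose by 0.48 and Runx1 by 0.43, and Ywhae, a 14-3-3 protein that can hold phosphorylated Yap in the cytoplasm, fell by 0.19. Tbx5 fell by 0.27 there (limma, adjusted p = 0.0400), but the call was lost without the third DMSO library (-0.16, adjusted p = 0.176) or without any 1 of the 3 Y27632 libraries. Smad3 went the other way with blebbistatin, at -0.21, and differed between the treatments by -0.68 (edgeR, adjusted p = 3.10e-09). In the direct comparison, 10 of the 20 genes were lower with blebbistatin than with Y27632 and 0 higher. Of all genes 27.3% were lower and 25.8% higher.

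Targets of Yap and Taz, from a published conserved signature with the CCN genes, mostly fell with blebbistatin. Of 22 tested, 17 fell and 3 rose with blebbistatin, with a median log2 fold change of -0.52. With Y27632, 11 fell and 3 rose, with a median of -0.19, and the CCN gene Ctgf, named after its values were seen, did not pass the test (-0.11). Over all genes 26.9% fell with blebbistatin and 17.8% with Y27632. This list was chosen with earlier results of these data known, so its counts are a description and not an independent test. The targets include 5 genes of the list of kinases and scaffolds, namely Amotl2, Lats2, Ajuba, Wtip and Ptpn14, so the lists are not independent. Cyr61, which encodes the matrix protein Ccn1, had 10510.2 ± 545 normalised counts with DMSO and 2610.2 ± 241 with blebbistatin (SD, n = 3). This is a log2 fold change of -2.01 with a standard error of 0.059 (limma, adjusted p = 7.30e-11). Gadd45b, a stress-response gene, had the widest fall of the list with Y27632, from 1254 ± 102 to 503 ± 6.66 normalised counts, a log2 fold change of -1.31 with a standard error of 0.060 (limma, adjusted p = 5.75e-09).

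Tgfb2, a growth factor of the same target list, rose instead, by 1.16 on the log2 scale with blebbistatin and by 0.32 with Y27632. Wtip rose by 0.44 with blebbistatin. F3, the gene of tissue factor, rose by 0.13 with Y27632 (limma, adjusted p = 0.0136), a call lost without the second DMSO library (0.10, adjusted p = 0.0697) or without the third Y27632 library (0.11, adjusted p = 0.0596). In the direct comparison, 15 of the 22 targets were lower with blebbistatin than with Y27632 and 3 higher, against 27.3% and 25.8% of all genes. The plot of list genes against DMSO shows these counts gene by gene.

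**Figure D3:**
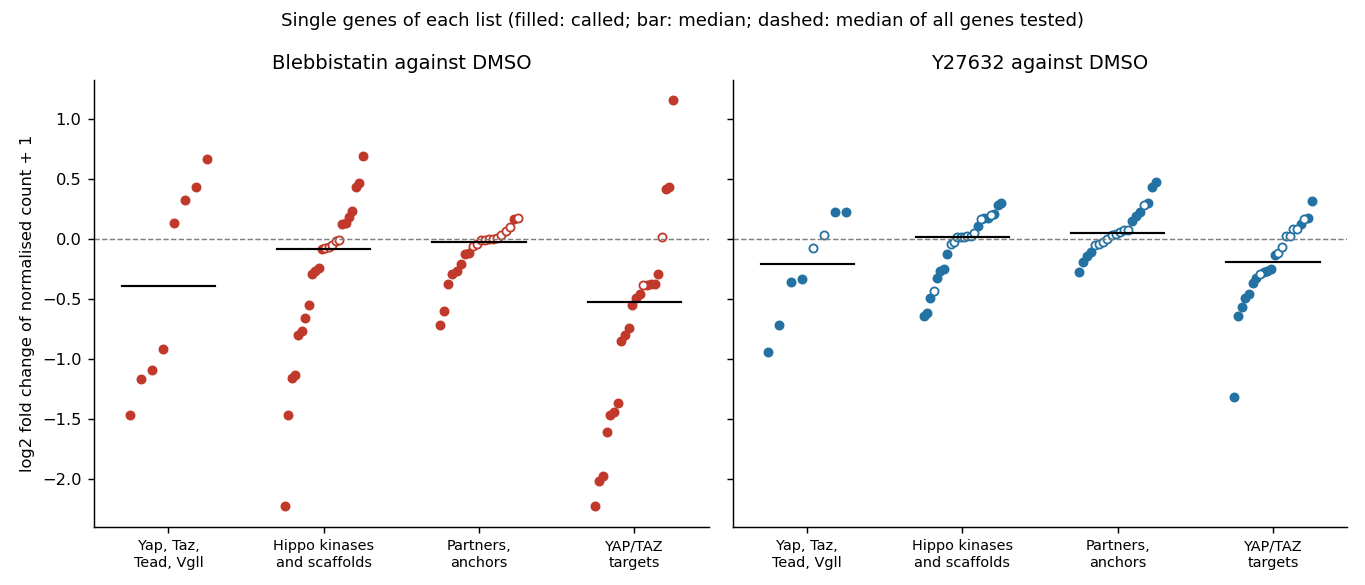
Log2 fold change of the normalised count plus 1 against DMSO (y axis) for the 8 genes and for 3 lists of pathway genes (x axis), with blebbistatin in the left panel and Y27632 in the right; each point is a gene, filled where called by limma, bars are medians and the dashed line is the median of all genes tested. The target genes have a median of -0.52 with blebbistatin and -0.19 with Y27632, while the medians of the kinases and of the partners lie within 0.1 of 0.

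The chromatin lists were deposited as group means, so the values that follow are the authors' own, without SD, n or a test computed here. Every listed site had an FDR of at most 0.05. In the authors' deposited table of ATAC sites for blebbistatin against DMSO, 7 of 970 sites were annotated to Vgll3, Tead1, Tead3 or Vgll4, and all 7 had lower accessibility with blebbistatin. The list as a whole was 98.2% lower, and it held 1.54% of about 62846 sites tested (1.52% lower), a number worked out from the deposited p-values, ranks and FDR. None of the 207 sites of the list for Y27632 against DMSO, 0.335% of about 61804 tested, was annotated to the 8 genes. Since that list is shorter, this does not show that the treatments differ at these sites.

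Vgll3, on chromosome 16, had 4 of the 7 ATAC sites, and 7 of the 788 genes in the list had 4 or more. All 4 were intergenic. The site at chr16:65766006-65766322 (mm10), 49 kb before the annotated start of Vgll3, had a deposited log2 fold of -1.87 at an FDR of 0.00725. The other three lay past the gene, at chr16:65986173-65986374, chr16:66068597-66069208 and chr16:66069308-66069453, between 171.1 and 254.2 kb from its start, with authors' log2 folds of -1.71, -1.69 and -1.84. The assignment of such distant sites to Vgll3 is by nearest start only.

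Tead1 had 1 such site, in its intron 1 of 13, at chr7:112720068-112720543, with a deposited log2 fold of -1.54 at an FDR of 0.0342. Tead3 had 1 in its intron 2 of 12, at chr17:28340574-28340926, with a deposited log2 fold of -1.67 at an FDR of 0.0366. Vgll4 had 1 in intron 2 of 5, at chr6:114941456-114941766, with a deposited log2 fold of -1.44 at an FDR of 0.0422. The RNA of Vgll3, Tead1 and Tead3 was lower with blebbistatin, whereas that of Vgll4 was higher, so listed sites and RNA did not go the same way in every gene.

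The authors' ATAC table for blebbistatin also marks instances of the TEAD motif. At least 1 instance was marked in 603 of the 970 sites, 62.2%, and in 6 of the 7 sites of these genes. The exception was the Vgll3 site at chr16:66069308-66069453. The 8 marked instances are printed to show how closely each follows the core, as read from the deposited table and turned to the motif's own strand, 5′ to 3′, with the 5 core bases in capitals:
Tead1, intron 1: tGGAATgttt
Tead3, intron 2: aGGAATttgg
Vgll4, intron 2: tGGAATtttt
Vgll3, before the start, nearer the site's own start: aGGAATgcaa
Vgll3, before the start, farther along the site: aGGAATtcac
Vgll3, the site at 171.1 kb: aAGAATgtta
Vgll3, the site at 253.7 kb: aGGAATgttc
Vgll3, the same site at 253.7 kb: aGGAATgctg
Of these 8 instances, 7 had the core GGAAT and 4 had it followed by a G. Over all 837 instances in the list, the shares were 91.0% and 64.0%. The exception was the instance 171.1 kb past the start of Vgll3. A marked instance is a match of letters, and binding was not measured.

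In the separate experiment, the list for blebbistatin without doxycycline had 5 of 1231 sites annotated to Vgll3, Tead3 or Vgll4. All 5 were lower, as was 99.0% of the list, which held 1.78% of about 68975 sites tested (1.77% lower). These lists also required an absolute log2 fold of at least 1. The Tead3 site at chr17:28340547-28340934 had a deposited log2 fold of -1.26 at an FDR of 3.95e-05, the Vgll4 site at chr6:114941535-114941749 had -1.03 at an FDR of 0.0146, and the Vgll3 site at chr16:65765998-65766361 had -1.04 at an FDR of 0.00429. Each of these 3 overlapped the ATAC site of the same gene described above, in libraries that the ATAC list did not use. The remaining 2 sites lay inside Vgll3, in intron 1 of 3 and intron 2 of 3, with authors' log2 folds of -1.09 and -1.12.

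The list for blebbistatin with doxycycline, against doxycycline alone, had 10 of 6346 sites annotated to these genes, all of them lower. That list was 99.8% lower and held 8.75% of about 72539 sites tested (8.73% lower). By p-value its sites ranked as far as 47795, so the threshold on the fold left out many sites with an FDR of at most 0.05. Absence of a site from this list thus does not show that it was unchanged. Vgll3 had 4 sites with deposited log2 folds from -1.19 to -1.07, Tead1 had 3 from -1.10 to -1.02, Vgll4 had 2 at -1.05, and Wwtr1 had 1 at -1.02 in intron 2 of 6. The Vgll3 site at chr16:66069059-66069456 overlapped both of the ATAC sites that lie near 254 kb. The other 9 sites overlapped no listed site of these genes in the other lists.

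The list for doxycycline against neither drug went the other way, with 9 of 7613 sites annotated to these genes, 7 higher and 2 lower. Of that list 4.15% was lower, and it held 9.36% of about 81359 sites tested (8.97% higher, 0.388% lower). Here too the threshold on the fold left out many sites, as listed sites ranked as far as 32282 by p-value. The list shares its doxycycline group with the list for blebbistatin with doxycycline and its group with neither drug with the list for blebbistatin alone. Its reference column is headed as the blebbistatin group, but at 13 identical sites its values differed from those of the group with neither drug by -0.13 ± 0.0044 and from the blebbistatin group by 1.12 ± 0.184 (SD over sites), and it was read as the group with neither drug.

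The 2 lower sites were both in intron 5 of 7 of Yap1, at chr9:7943803-7943910 and chr9:7944201-7944334, with deposited log2 folds of -1.62 and -1.67. They were the only listed sites of Yap1 in the 5 lists. Both were narrow, at 107 and 133 bases. Their log2 group means were the lowest of the 9 sites, at 3.12 and 3.35 with doxycycline and 4.75 and 5.03 with neither drug. Of the 7 higher sites, 2 lay at annotated starts: the Wwtr1 promoter at chr3:57575688-57576678, with a deposited log2 fold of 1.01 at an FDR of 4.65e-06, and the first exon of Tead4, in its 5′ UTR, at chr6:128299987-128300955, with 1.13 at an FDR of 1.13e-06. These 2 were also the widest of the 9. Sites annotated as promoters made up 18.7% of the whole list, a class with the Wwtr1 site but not the Tead4 site.

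Tead1 had 2 higher sites in intron 1, with authors' log2 folds of 1.16 and 1.04, and the second of them, at chr7:112720068-112720553, overlapped the Tead1 site that was lower with blebbistatin in the ATAC list. A further site inside the span of Tead1 was annotated to Rassf10 and was not counted. Vgll3 had 1 higher site 72 kb before its start (1.18), Vgll4 had 1 in intron 2 (1.01) and Wwtr1 had a second in intron 2 (1.02). Tead2 had no site in any of the 5 lists, and Tead4 had none outside the doxycycline list.

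**Figure D4:**
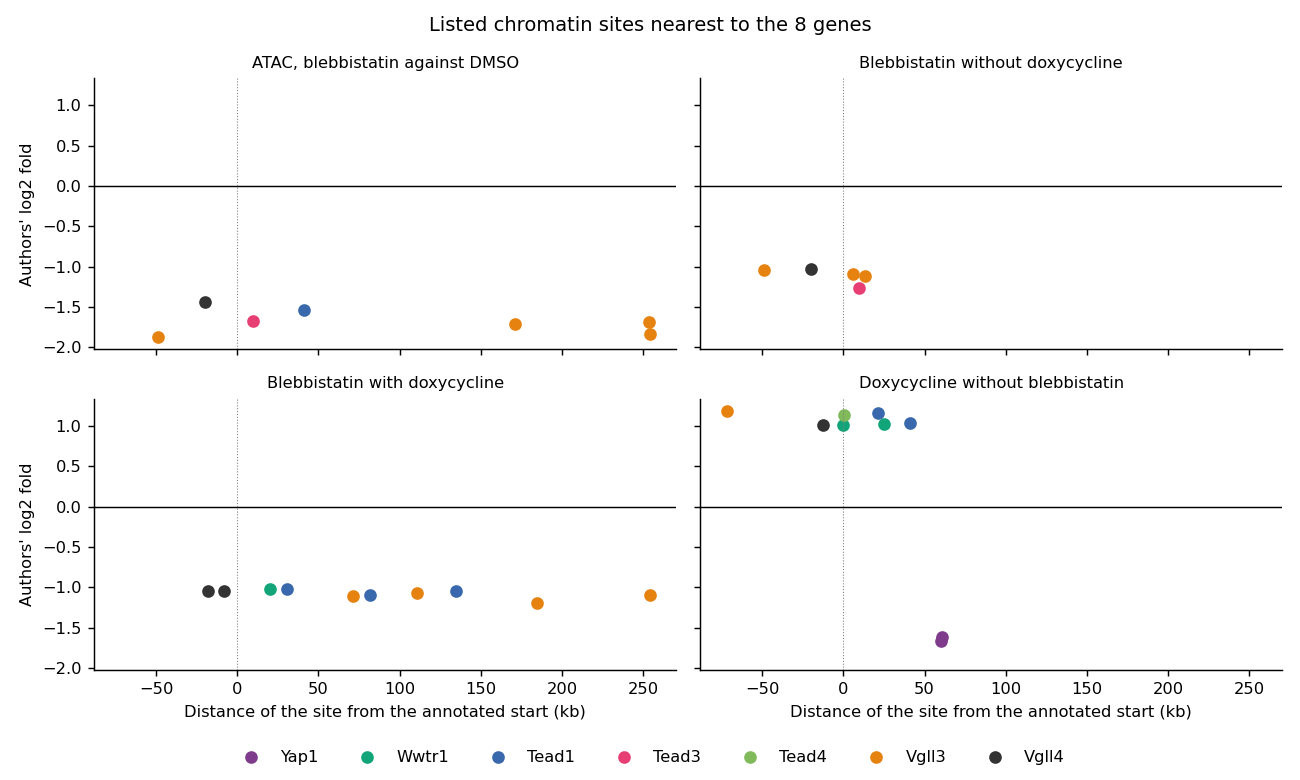
The authors' log2 fold (y axis) of each listed site annotated to the 8 genes against its distance from the annotated start in kilobases (x axis, negative before the start), in 1 panel per list with sites; colours are genes. All points of the 3 blebbistatin panels lie below 0, and in the doxycycline panel 7 lie above 0 and the 2 Yap1 sites below it. The list for Y27632 held no such site. The Vgll4 sites in intron 2, at -12.6 to -19.8 kb, lie inside the gene. Their distances refer to an annotated start within it.

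The promoter site of Wwtr1 is shown because it is the listed change nearest to the start of a co-activator gene. The sequence before the start, at chr3:57575911-57576160 (GRCm38.p6, the assembly that mm10 names, minus strand, RefSeq), lies wholly inside the listed site, with 1 match to GGAATG in capitals:
Wwtr1: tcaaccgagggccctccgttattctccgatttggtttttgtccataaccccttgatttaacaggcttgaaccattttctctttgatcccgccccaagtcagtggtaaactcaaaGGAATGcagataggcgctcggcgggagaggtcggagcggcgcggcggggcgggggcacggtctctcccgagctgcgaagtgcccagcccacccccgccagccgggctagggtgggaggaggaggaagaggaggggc

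The letters GGAATG, on either strand, were searched in the RefSeq promoter windows, which run from 250 bases before to 50 bases after each start. RefSeq windows were found for 6 of the 8 genes, and the search was not made for Tead1 and Tead4. Of these 6 genes, 5 had a match in at least 1 window, as did 16.6% of all 27025 genes with a window. By window, the counts were 7 of 9 for these genes, some of whose windows overlap, and 14.7% of 32851 in all. Tead2 was the gene without a match.

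A match of each of the other four genes is printed with the bases around it, so that strand and context can be compared with Wwtr1, where the match lies 136 bases before the start. Each runs 5′ to 3′ on the strand of its gene, and CATTCC is GGAATG read on the opposite strand:
Yap1, 141 bases before the start, chr9:8004720-8004749: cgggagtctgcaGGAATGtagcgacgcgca
Tead3, 182 bases before the start, chr17:28350970-28350999: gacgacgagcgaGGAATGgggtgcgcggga
Vgll3, 63 bases before the start, chr16:65815114-65815143: cccgcctccccaCATTCCggctaccctgcc
Vgll4, 82 bases before the start, chr6:114969268-114969297: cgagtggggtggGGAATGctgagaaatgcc
The printed matches of Yap1, Tead3, Vgll4 and Wwtr1 were on the strand of the gene and that of Vgll3 on the opposite one. Tead3 had 3 further matches, in the window of its start at position 28350600, which are not printed: those at 123 and 114 bases before that start were on the opposite strand, and the one 2 bases after it was on the strand of the gene. No listed site covered the promoter matches of Yap1, Tead3, Vgll3 or Vgll4. A match is a description of these letters and not of a binding site.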

How the data were processed

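RNA signal values are deposited in 2 tables as normalised read counts, each library being divided by a size factor of its own table. In every column 100% of the values were whole multiples of 1 step (tolerance 0.01), and the reads recovered for DMSO were identical in both tables over 35972 shared genes. The submitters' processing notes name HISAT2, featureCounts and DESeq2, among other tools, and the build mm10. Use of strand in counting is not given in the sources used here, and Wwtr1 overlaps the pseudogene Gm16016 and Vgll4 the lncRNA Gm38876, which had at most 1.10 normalised counts in the blebbistatin table. Sample columns without a matching label numbered 0.

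Per the file headers, the site lists give log2 means of each group, log2 folds, p-values and FDR. The deposited distances to a start and the deposited GC fraction were other values of these lists, and the latter was not compared. How the site values were scaled between libraries is not given in the sources used here.

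Genes averaging at least 10 normalised counts were tested with limma 3.58.1 (trend, log2 of the count plus a pseudocount of 1, which understates changes of low genes). Blebbistatin and Y27632 were compared by edgeR 4.0.16 (quasi-likelihood, TMM) on recovered reads of 9 libraries, since the tables were scaled separately. P-values were adjusted by Benjamini-Hochberg over all genes, and called under 0.05. Scripts were tested on simulated data. CPM values use TMM over 9 libraries. The members and lists were chosen with earlier results of these data known. Named are all 8 genes, all their sites, the 2 highest and 2 lowest called genes without overlap of each list and comparison with DMSO, and the 3 genes of at least 100 counts nearest to the 4 widest-ranging members. All replicate pairs differed beyond counting noise. Alternatives tried were other tools, pseudocounts, filters, scalings, a replicate block, omitted libraries, and stricter rules for sites.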

Additional observations from a re-analysis of the deposited data

How the results depend on the processing

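Of the log2 fold changes named, 600 values under alternatives kept their direction and their side of the threshold, 12 kept only the direction, and 2 changed sign, those of Tead4 between the treatments (-0.012 without the first blebbistatin library and -0.016 without the third Y27632 library, in a range of -0.016 to 0.059 with 1 library left out). The 12 are those of Tbx5, F3, Wwtr1 and Yap1 given with those genes, and for Tbx5 under Y27632 also DESeq2 (adjusted p = 0.0725) and the replicate block (adjusted p = 0.0571). Genes called numbered 7894 for blebbistatin, 5328 for Y27632 and 7932 between the treatments. They were 6631, 4109 and 6649 by DESeq2, and edgeR on recovered reads called 7884 and 5399 against DMSO. Leaving out 1 library gave 6994 to 7394, 4304 to 4839 and 7157 to 7465. The 8 genes stayed at 8, 6 and 7 called under all these, except that 5 to 7 were called between the treatments with 1 library left out. Same-numbered libraries correlated at -0.08 to 0.05 in their deviations, so no shared effect of the number was seen. These values do not show whether same-numbered libraries were prepared together. With the replicate block 7604, 4633 and 7722 genes were called, and 8, 6 and 7 of the 8. Of the 31 sites, 19 lay within 50 kb of the annotated start and 25 had an FDR of at most 0.01. Of the 6 overlapping pairs of sites, 5 covered at least 50% of the shorter site. Levels per kilobase were not run, because no exon length was used here, so levels were not compared between genes. Depth limits Tead4 most, at 79 to 161 reads per library.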
